A study of Mus musculus with 8 samples.

Results

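The transcripts described here are 10 genes of bone morphogenetic protein (BMP) signalling and of endoglin, taken by name from 46603 rows of the count table. They are the ligands Bmp2, Bmp4 and Bmp6, the receptors Eng, Acvrl1 and Bmpr2, the target genes Id1 and Id3, and the inhibitors Smad6 and Smad7. All 10 were among the 13605 genes that passed the filter on low counts. RNA was sequenced from EpCAM+CD45- cells that were sorted from the livers of 4 mice (JV602, JV621, JV624 and JV6314) at 8 weeks of age, so that each animal gave a library of EGFP-positive and a library of EGFP-negative cells. Values of single libraries are given in that order of the mice throughout. All mice were of the labelled genotype R26rtTA het/H2B-EGFP het and had received doxycycline from birth to postnatal day 5, so that both groups share the transgenes and the treatment. The tetracycline transactivator sits in the ubiquitously active Rosa26 locus, and the histone 2B-EGFP fusion that it induces is diluted at each division. Cells that kept EGFP are the liver label-retaining cells (LLRCs), and those without it are non-LRC cells. H2B-EGFP is also made without induction in hematopoietic cells, against which the sort selected by CD45. The mice were of mixed background.

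BMPs are secreted ligands that bring together type I and type II receptor kinases, which then phosphorylate the receptor-activated Smads. With Smad4 these turn on target genes, among them the Id genes, whose products block basic helix-loop-helix factors, and the inhibitory Smads, which feed back on the receptors. In the liver, Bmp2 and Bmp6 made by endothelial cells of the sinusoid drive hepcidin in hepatocytes, and endoglin with the type I receptor ALK1 (encoded by Acvrl1) is best known as the receptor pair for BMP9 on endothelium, mutated in hereditary hemorrhagic telangiectasia.

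Eng and Bmp4 were the genes of this group whose LLRC and non-LRC libraries did not overlap, so the 250 bases before the start of each are shown, from RefSeq on GRCm38.p6, 5′ to 3′ on the strand of the gene. The 4 letters GGAA, the core of the motif bound by ETS factors, are in capitals on either strand (TTCC where they lie on the other strand). The Eng sequence is chr2:32646345-32646594 on the plus strand and the Bmp4 sequence is chr14:46390670-46390919 on the minus strand.
Eng: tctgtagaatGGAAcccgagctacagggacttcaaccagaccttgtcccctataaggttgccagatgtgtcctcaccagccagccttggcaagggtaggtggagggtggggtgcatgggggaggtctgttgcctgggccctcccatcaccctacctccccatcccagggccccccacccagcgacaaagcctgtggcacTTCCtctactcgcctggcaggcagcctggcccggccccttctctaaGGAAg
Bmp4: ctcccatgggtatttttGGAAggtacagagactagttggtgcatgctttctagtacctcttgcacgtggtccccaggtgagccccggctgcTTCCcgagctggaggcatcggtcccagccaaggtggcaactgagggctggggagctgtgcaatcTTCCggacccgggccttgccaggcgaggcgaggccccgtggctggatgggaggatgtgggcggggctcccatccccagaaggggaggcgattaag
Both windows held 3 matches to GGAA, a run of letters that 93.4% of the 32851 promoter windows of this length also hold. Neither held GGCGCC or GCCGNCGC, GC-rich letters that Smads can bind, when read on both strands; 9.59% and 6.89% of the windows hold them. Windows were found for 6 of the 10 members. Those of Bmpr2, Bmp6 and Id3 precede the RefSeq start but overlap exons of the same gene in GENCODE M21, which starts these genes further upstream, so they are not described further.

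The LLRC libraries held between 7860021 and 9851819 counts and the non-LRC libraries between 4670132 and 8056103. At these depths 3 counts, the floor used here, correspond to between 0.291 and 0.627 CPM (counts per 1000000 of the TMM-scaled library). Of 14 cholangiocyte markers, 1 (Cftr) had an unadjusted edgeR p below 0.05, and their median log2 fold change was 0.30. Epcam, on which the cells were sorted, was read at a mean of 583.5 ± 48.6 CPM (SD, n = 4) in LLRCs and of 551 ± 148.3 CPM otherwise, and Cftr at 148.7 ± 55.5 and 54.96 ± 29.98 CPM. Transcripts of 18 endothelial markers summed to between 46.4 and 88.5 CPM in the LLRC libraries and to between 257.1 and 1370 CPM in the non-LRC libraries. By mouse this sum was 46.4, 88.5, 64.3 and 64.7 CPM for LLRCs and 257.1, 1370, 516.8 and 795.6 CPM for non-LRC cells. All 18 were read in at least 1 LLRC library, while Erg and Sox17 had 0 counts in 2 of them each and Tie1 and Lyve1 in 1. For 15 of the 18, no LLRC library reached the lowest non-LRC one, as for 1.91% of all genes tested. The non-LRC library of JV6314 also held 1531 CPM of 10 pancreatic enzyme transcripts (at most 23.1 CPM elsewhere), and that of JV621 had the fewest genes detected (14234, against 16042 to 20430). In edgeR's quasi-likelihood test 0 markers of any list, the endothelial one included, had an adjusted p below 0.05, where 0 of all 13605 genes did (0%). Of 10 hepatocyte markers, 4 were lower in LLRCs in all 4 mice (5.53% of all genes tested) and 5 had an unadjusted edgeR p below 0.05 (5.16%), with a median log2 fold change of -1.57. Their sum lay between 2908 and 3428 CPM in LLRCs and between 2160 and 6740 CPM otherwise. It was mostly Alb (means of 2336 and 2319 CPM), except in the non-LRC libraries of JV624 (2773 of 6740 CPM) and JV6314 (2786 of 6245 CPM). Cyp2e1 stood at 23.7 ± 10.8 and 152.5 ± 134 CPM (SD, n = 4). Of 10 stellate cell and fibroblast markers, 2 were lower in all 4 mice, with a median of -1.69 over the 6 tested. Lrat, which stores retinol in stellate cells, had 5.92 ± 2.12 and 46.6 ± 22.7 CPM without overlap and Dcn 341.2 ± 202 and 1278 ± 929 CPM, whereas Rgs5, at 6211 and 4177 CPM, made up most of a sum between 2472 and 9947 CPM in LLRCs and between 3519 and 9179 CPM otherwise. Kupffer cell and leukocyte markers summed to between 38.2 and 73.1 CPM and between 45.1 and 103 CPM, and their members went both ways. Adgre1, Clec4f, C1qa and C1qb had 0 counts in every LLRC library, but the CD45 gene Ptprc was read 5, 34, 14 and 59 times in LLRCs and 0, 0, 0 and 7 times in the other sort, and was thus higher in LLRCs in all 4 mice. The part of these cell types in the values of the 10 genes was not tested.

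Transcripts of endoglin, Bmp4 and, in 3 of 4 mice, Bmp2, Acvrl1 and Smad6 were fewer in LLRCs, while Bmpr2, Id1, Id3 and Smad7 lay between -0.35 and 0.29 as log2 fold changes. Of the 10, 0 passed an adjusted p of 0.05 under edgeR's quasi-likelihood test, where 0 of all 13605 genes did (0%). The count was also 0 of 10 without the filter on low counts, where 0.0399% of genes passed, and with non-LRC cells of JV602 left out, where 0.0425% passed. At an unadjusted p below 0.05 in the same edgeR fit, 4 of the 10 were lower in LLRCs (Bmp2, Bmp4, Eng and Smad6) and 0 higher, against 3.56% and 1.6% of all genes tested (5.16% in either direction). Bmp2, Bmp4 and Eng were also lower at that level in each of 17 alternative fits, among them those without the non-LRC library of JV6314 or of JV621, whereas Smad6 was so in 4 of the 17. These counts were added after the data were seen. Taken singly, these 17 fits had between 2.46% and 5.38% of the genes they tested lower at an unadjusted p below 0.05. The share of genes lower in all 17 was not computed, and all 17 draw on the same 8 libraries. The median log2 fold change of the 10, given as LLRC over non-LRC throughout, was -1.10, beside -0.015 over all genes tested. DESeq2's Wald test called 3 of the 10 (Bmp2, Bmp4 and Eng), all lower in LLRCs, where it called 1.62% of all genes and 1.26% as lower, and edgeR's exact test without a filter on low counts called 2 (Bmp4 and Eng), where it called 0.417% and 0.323% as lower. limma called 0 of the 10 and 0 of all genes, with 886 genes at an unadjusted p below 0.05. The study named Eng and Bmp4 from these same libraries, so their values are not independent evidence of a direction. Since the RNA is from bulk populations, fewer cells of a type and less RNA per cell cannot be told apart.

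**Figure D1:**
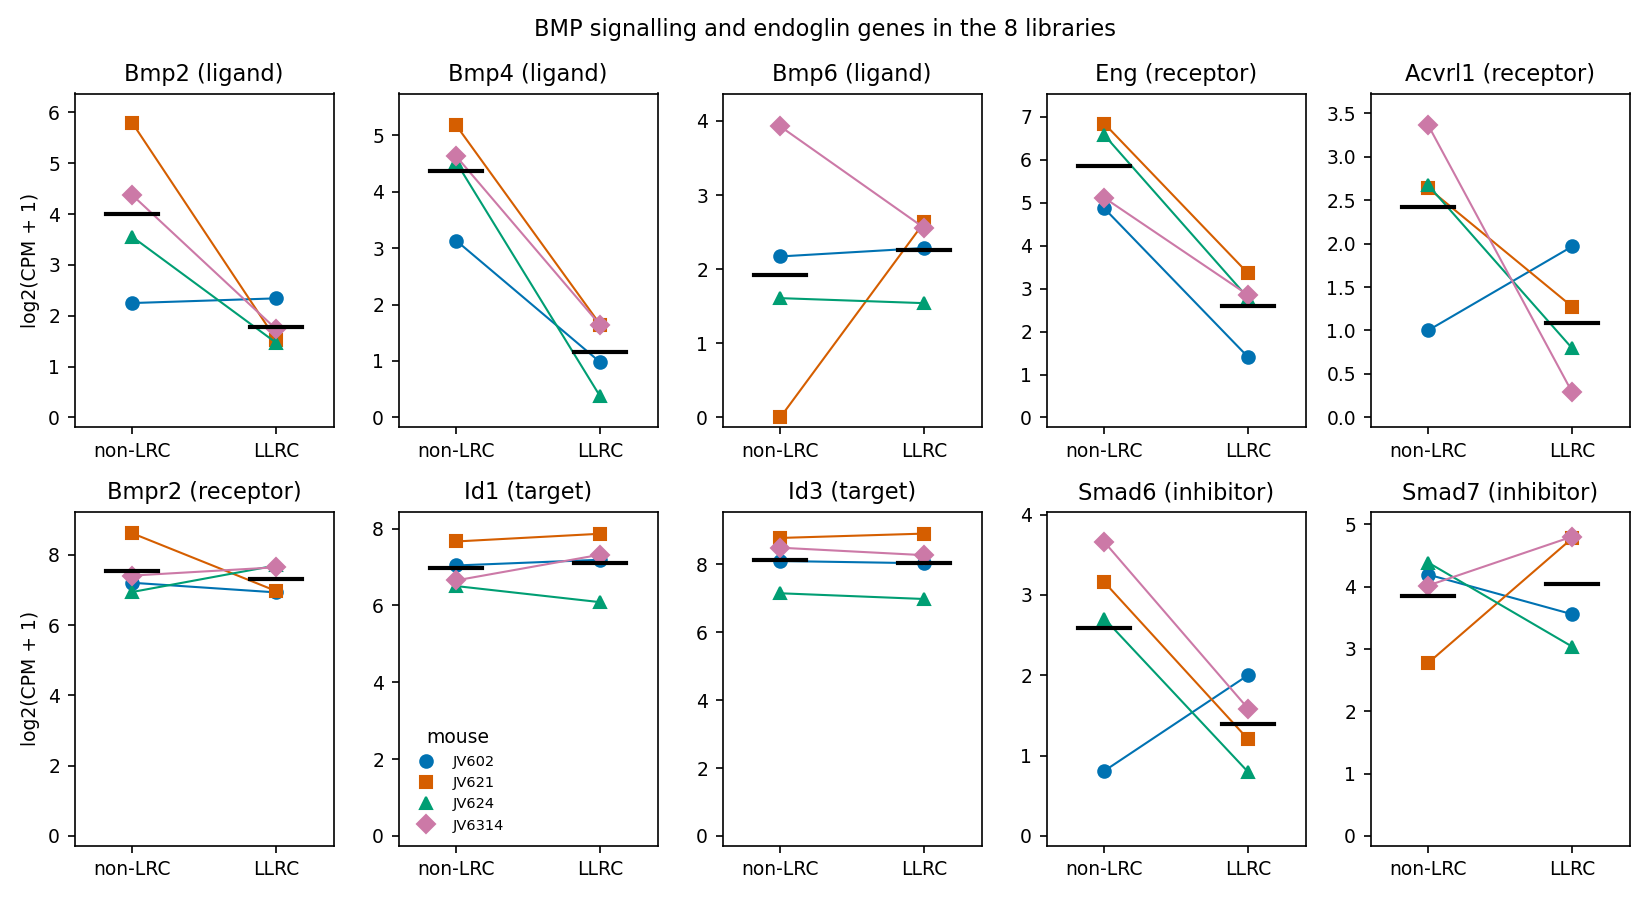
Level of each of the 10 genes, as log2(CPM + 1) on the vertical axis, in the non-LRC and LLRC libraries; a line joins the libraries of 1 mouse and a black bar is the group mean. The lines of Eng and Bmp4 run down in all 4 mice, those of Bmp2, Acvrl1 and Smad6 run down in 3 mice and up in JV602, those of Id3 stay nearly level, and those of Id1 go both ways.

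Bmp4, a ligand with roles in vessel and mesenchyme development, was the ligand with the clearest separation. Its level was 0.969, 2.13, 0.294 and 2.11 CPM in LLRCs, against 7.76, 35.1, 21.9 and 23.7 CPM in non-LRC cells. The ranges of the sorts did not meet, with LLRCs below as in 1.91% of the genes tested (above in 2.15%), and the lowest LLRC value, in JV624, rests on 2 counts, which is under the floor. The mean was 1.38 ± 0.90 CPM (SD, n = 4) in LLRCs and 22.1 ± 11.2 CPM in the others. On the log2 scale the fitted change was -3.98 with a standard error of 0.73, and edgeR's adjusted p was 0.124. A two-sided exact permutation test gave p = 0.0286, the smallest that 4 libraries against 4 allow. This and the other permutation tests ignore the pairing by mouse, and exchanging labels within the 4 mice cannot give a two-sided exact p below 0.05. Within mice the difference on the log2(CPM + 1) scale was -2.15, -3.53, -4.15 and -2.99. The gene lies at chr14:46383520-46390669 on GRCm38, and 3.96% of its exonic bases are shared with Gm15217 on the opposite strand, which counting without strand cannot separate.

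Bmp2, an endothelial ligand of the hepcidin pathway in liver, was read at 4.07, 1.89, 1.76 and 2.33 CPM in LLRCs, against 3.76, 54.5, 10.7 and 19.7 CPM in non-LRC cells. The groups overlapped through JV602, whose LLRC library was the highest of its group and whose non-LRC library was the lowest of its own. In the other 3 mice the LLRC library was lower by 4.26, 2.08 and 2.64 on the log2(CPM + 1) scale. In edgeR the fitted log2 change came to -3.12 (standard error 0.81), with 0.359 as its adjusted p, and the two-sided exact permutation p was 0.0571. The non-LRC mean of 22.2 CPM rested on JV621 and was 11.4 CPM without that library, against 2.52 CPM in LLRCs.

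Bmp6, the other endothelial BMP of iron control, had few reads in both sorts. It stood at 3.88, 5.20, 1.91 and 4.88 CPM in LLRCs, against 3.51, 0, 2.05 and 14.2 CPM in non-LRC cells. The LLRC values lie within the range of the non-LRC values, which runs from 0 counts in JV621 to 72 counts in JV6314. edgeR's quasi-likelihood fit put the log2 fold change at -0.31 ± 1.09 (standard error), with an adjusted p of 1, and without the non-LRC library of JV6314 the non-LRC mean of 4.94 CPM was 1.85 CPM and the log2 fold change 1.08. With the mouse as a block the log2 fold change was 0.46. Of its exonic bases, 5.74% are shared with Txndc5 on the opposite strand.

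Among the receptors, Eng had the widest difference. It encodes endoglin, a co-receptor of the TGF-beta family that is abundant on endothelium. Its level was 1.65, 9.22, 5.88 and 6.22 CPM in LLRCs, against 28.3, 114.2, 94.7 and 33.7 CPM in non-LRC cells. The highest LLRC value lay below the lowest non-LRC value, and JV602 was the lowest and JV621 the highest mouse in both groups. Means were 5.74 ± 3.12 CPM and 67.7 ± 43.2 CPM (SD, n = 4), so that LLRCs held 11.8-fold less. On the log2 scale the fitted change was -3.56 with a standard error of 0.67, and edgeR's adjusted p was 0.124. The two-sided exact permutation p was 0.0286, again the smallest possible. The within-mouse differences, -3.47, -3.49, -3.80 and -2.27 on the log2(CPM + 1) scale, were all negative, with JV6314 the smallest in size. Entering the mouse as a block gave the same size with a smaller error (-3.54, standard error 0.45, adjusted p = 0.194 in edgeR's quasi-likelihood test). The gene lies at chr2:32646595-32682669, and 1.51% of its exonic bases are shared with Fpgs on the opposite strand.

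Acvrl1, whose product ALK1 signals with endoglin, had few reads in every library, between 2 and 47 counts. It stood at 2.91, 1.42, 0.735 and 0.222 CPM in LLRCs, against 1.00, 5.22, 5.37 and 9.27 CPM in non-LRC cells. JV602 ran against the other mice, with the highest LLRC value and the lowest non-LRC value, while JV6314 had the lowest LLRC value (2 counts) and the highest non-LRC value. In edgeR the fitted log2 change came to -1.95 (standard error 0.89), with 0.968 as its adjusted p. The two-sided exact permutation p was 0.0857. Without JV602, the LLRC mean of 1.32 CPM was 0.792 CPM.

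Bmpr2, the type II receptor of BMPs, was read throughout, with 121.2, 124.5, 207.1 and 199.6 CPM in LLRCs, against 146.8, 391.3, 122.2 and 169.3 CPM in non-LRC cells. The groups overlapped, 2 mice were higher and 2 lower in LLRCs, and the highest value was that of the non-LRC library of JV621. edgeR's quasi-likelihood fit put the log2 fold change at -0.35 ± 0.41 (standard error), with an adjusted p of 1. Without that library it was 0.17.

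**Figure D2:**
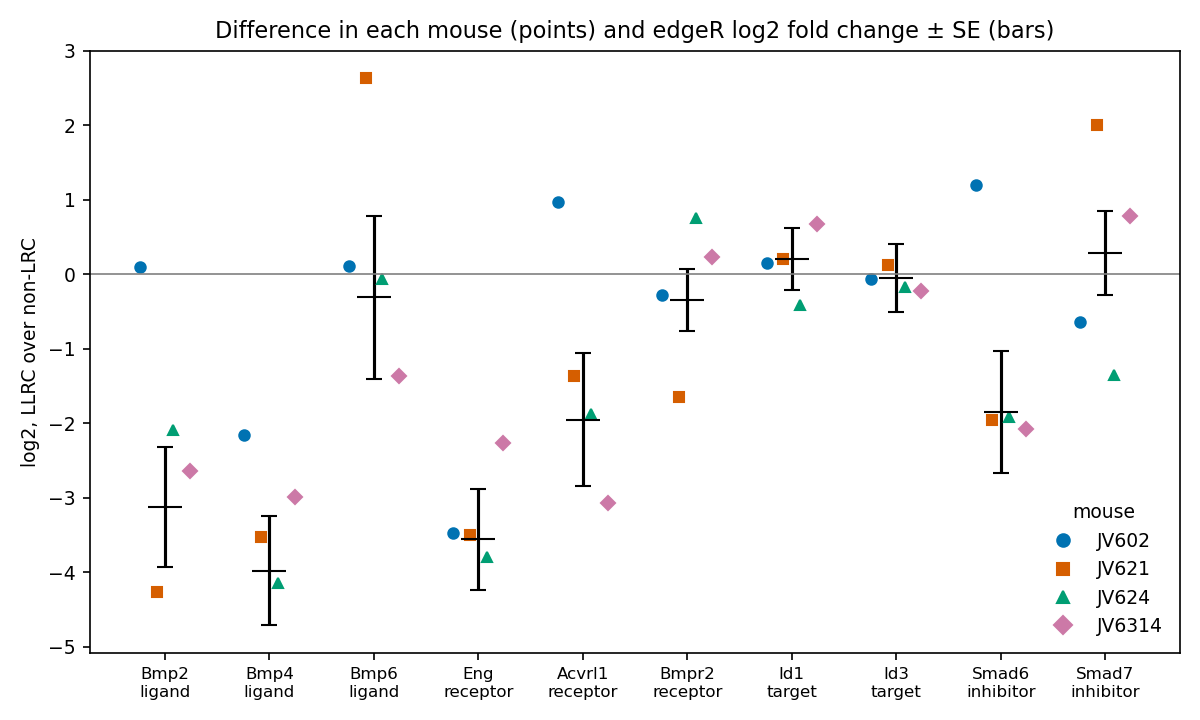
Difference between the LLRC and the non-LRC library of each mouse, in log2(CPM + 1) (coloured points), and the edgeR log2 fold change with its standard error (black bars), for each of the 10 genes. The points of Eng lie between -3.80 and -2.27 and those of Bmp4 between -4.15 and -2.15, all below 0, while those of Id3 lie between -0.22 and 0.13.

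The target genes Id1 and Id3 were, per length, the most abundant members in both populations. In edgeR's quasi-likelihood fit with TMM scaling and all 8 libraries they had the smallest differences between the populations. This was not so in limma, where Id1 was at 0.36 and Smad7 at -0.01 on the log2 scale. Id1 stood at 145, 232.4, 66.9 and 159 CPM in LLRCs, against 130.7, 202.1, 89.8 and 99.6 CPM in non-LRC cells, for which edgeR fitted 0.21 on the log2 scale (standard error 0.42) with an adjusted p of 1. Id3 stood at 260.1, 477.6, 125 and 307.2 CPM and at 272.6, 437.1, 140.6 and 357.9 CPM, for which edgeR fitted -0.05 on the log2 scale (standard error 0.46) with an adjusted p of 1. JV621 was the highest and JV624 the lowest mouse in both groups for each gene. Of all genes tested, 0.647% had that pattern, and Id3 had its 4 mice in the same order in both groups, as had 5.36%. This pattern was chosen after the values were seen. Entering the mouse as a block left the log2 fold changes at 0.15 for Id1 (standard error 0.28) and -0.08 for Id3 (standard error 0.23). Reads of Id3 were 191.2 ± 11.1% of those of Id1 in LLRCs and 235.1 ± 86.9% in non-LRC cells (SD, n = 4), where JV6314 alone reached 359.2%.

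Of the inhibitory Smads, Smad6, which is itself a BMP target and is prominent in endothelium, had between 5 and 59 counts a library. It stood at 3.00, 1.30, 0.735 and 2.00 CPM in LLRCs, against 0.751, 7.94, 5.53 and 11.6 CPM in non-LRC cells. As with Acvrl1 and Bmp2, JV602 had the highest LLRC value and the lowest non-LRC value, and the other 3 mice were lower in LLRCs by between 1.91 and 2.08 on the log2(CPM + 1) scale. On the log2 scale the fitted change was -1.85 with a standard error of 0.82, and edgeR's adjusted p was 0.962. A two-sided exact permutation test gave p = 0.143. The non-LRC library of JV602 also held the lowest sum of endothelial markers of its group, and the LLRC library of JV602 the lowest of all 8 libraries.

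Smad7, which restrains both BMP and TGF-beta receptors, stood at 10.8, 26.4, 7.21 and 26.9 CPM in LLRCs, against 17.3, 5.85, 19.9 and 15.2 CPM in non-LRC cells. Its differences went both ways, up in JV621 and JV6314 and down in JV602 and JV624. In edgeR the fitted log2 change came to 0.29 (standard error 0.56), with 1 as its adjusted p.

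Levels can be compared between genes only per length, here as RPKM (CPM divided by the summed length of the annotated exons in kilobases). In LLRCs the order of the mean levels was Id3 (163.3 ± 81.3, SD, n = 4), Id1 (130 ± 58.5), Bmpr2 (9.07 ± 2.59), Smad7 (3.94 ± 2.28), Eng (1.42 ± 0.77), Bmp6 (1.02 ± 0.38), Bmp2 (0.708 ± 0.300), Bmp4 (0.612 ± 0.401), Smad6 (0.549 ± 0.305) and Acvrl1 (0.310 ± 0.273). The gap between Id1 and Bmpr2 exceeded the SD of both, while neighbours from Eng down to Acvrl1 were within their spread, as were Id3 and Id1. In non-LRC cells the order was Id3 (168.7 ± 70.8), Id1 (112.6 ± 43.8), Eng (16.7 ± 10.7), Bmpr2 (11.5 ± 6.90), Bmp4 (9.84 ± 4.98), Bmp2 (6.24 ± 6.33), Smad7 (3.22 ± 1.35), Smad6 (2.02 ± 1.42), Bmp6 (1.27 ± 1.63) and Acvrl1 (1.22 ± 0.79). Eng thus ranked below Bmpr2 and Smad7 in LLRCs and above both in non-LRC cells, where Eng, Bmpr2, Bmp4 and Bmp2 lay within their spread of each other.

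**Figure D3:**
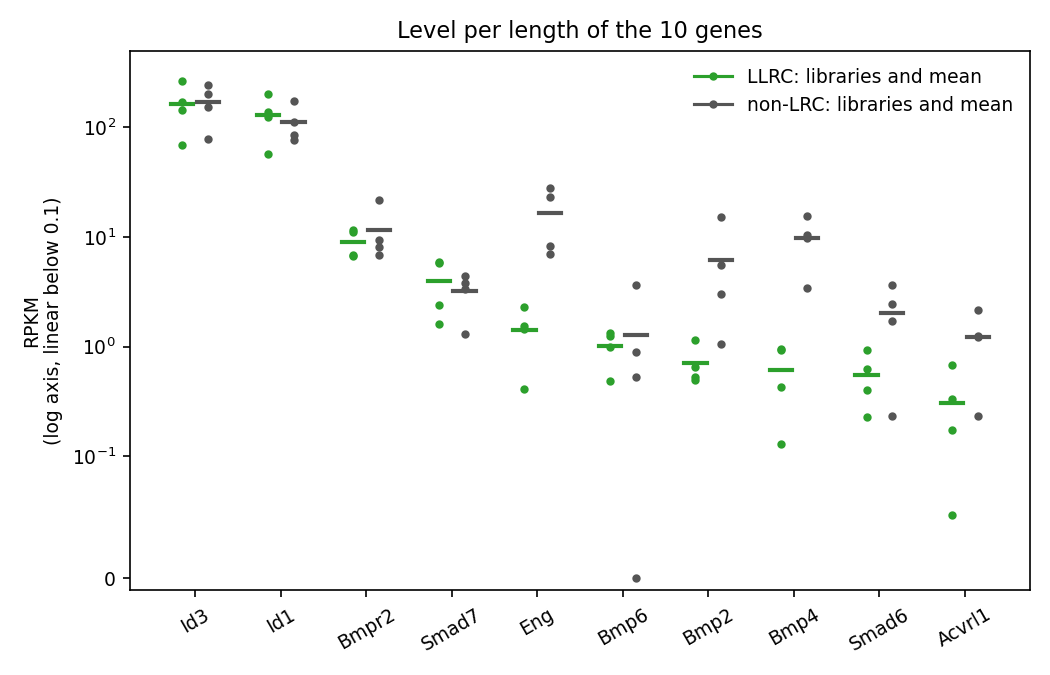
Level per length of the 10 genes, in RPKM on a log axis that is linear below 0.1, with 1 point per library and a bar for the mean (green LLRC, grey non-LRC). Id3 and Id1 lie above 50 in all 8 libraries, and Eng, Bmp2, Bmp4, Smad6 and Acvrl1 have lower means in LLRCs.

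The members were set beside the 18 endothelial markers by dividing CPM by CPM within each library, which cancels depth. None of the members is in the marker list, so these are ratios of separate sums, given in percent. The ratio of Eng, Acvrl1, Bmp2, Bmp4 and Bmp6 together to the marker sum was 29.0, 22.5, 16.5 and 24.4% in LLRCs, against 17.2, 15.3, 26.1 and 12.7% in non-LRC cells. The groups overlapped, although the marker sum itself did not. For Eng the ratio was 8.18 ± 3.14% in LLRCs and 10.5 ± 5.93% in the other sort (SD, n = 4), and for Bmp4 2.053 ± 1.17% and 3.201 ± 0.73%. Those of Acvrl1 (2.34 ± 2.67% and 0.744 ± 0.417%), Bmp2 (4.31 ± 3.03% and 2.50 ± 1.07%) and Smad6 (3.04 ± 2.44% and 0.851 ± 0.519%) had the higher mean in LLRCs. These LLRC means rested on JV602, and without it were 1.03, 2.83 and 1.90%, values that were added after the data were seen. All 5 of these overlapped between the sorts. Since the marker sum is lower in every LLRC library, 83.8% of all genes tested had a higher ratio in every LLRC library than in any non-LRC library. Bmp6, Bmpr2, Id1, Id3 and Smad7 were among them, so that these 5 ratios show nothing particular to the members.

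**Figure D4:**
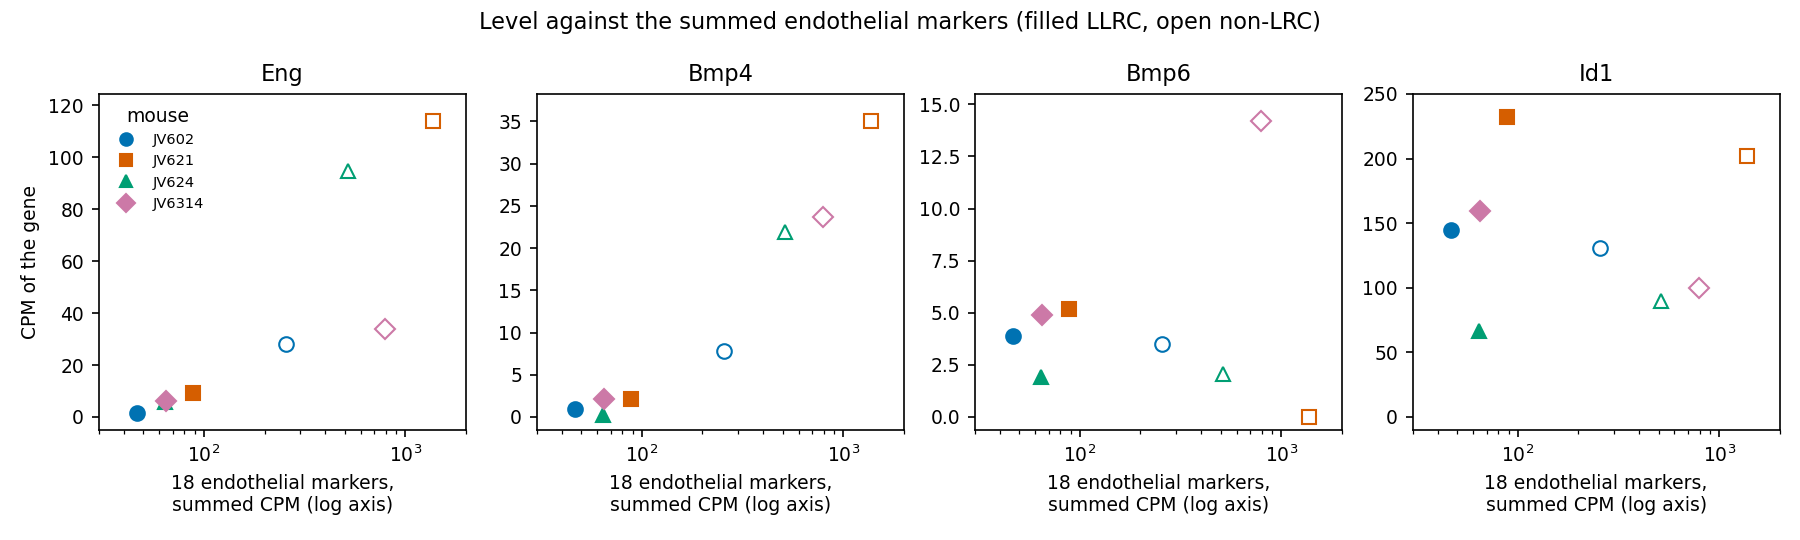
CPM of Eng, Bmp4, Bmp6 and Id1 on the vertical axes against the summed CPM of 18 endothelial markers on a log axis, with 1 point per library (filled LLRC, open non-LRC; colour and shape give the mouse). LLRC libraries lie at 46.4 to 88.5 CPM of the markers with low Eng and Bmp4, whereas the Id1 levels of both sorts overlap, at 66.9 to 232.4 CPM in LLRCs and 89.8 to 202.1 CPM in non-LRC cells.

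Genes whose log2(CPM + 1) tracked a member over the 8 libraries were sought as a description, with the 2 groups and depth shared by all points. The 5 named for each were picked as the highest among the 13605 genes tested, members left out. Over only 8 points high values were thus bound to be found. For Eng the 5 highest Pearson r, between 0.966 and 0.973, were those of Acer2, Esam, Fbln5, Rftn1 and Cdh5, of which Esam and Cdh5 encode endothelial junction proteins. Those of Bmp2 were Prdm15, Ifi203-ps, Gja5, Itga1 and Ackr1, with r between 0.957 and 0.975. Gja5 encodes an arterial connexin and Ackr1 a chemokine receptor of venular endothelium. For Id1 the genes were Slc35f5, Tm9sf2, Pgrmc1, Sec24b and Prom1 (r between 0.923 and 0.972). Prom1, the lowest of these 5 at r = 0.923, encodes the biliary surface marker CD133. It had a mean of 302 CPM in LLRCs, beside 292.9 CPM in the EGFP-negative sort.

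Of 69 further genes of BMP and TGF-beta signalling, 43 passed the filter on low counts, and 0 of these were called in edgeR's quasi-likelihood test, DESeq2's Wald test or limma. The exact test of edgeR, run without the filter on 64 of them, also called 0. With an unadjusted p below 0.05 under the edgeR quasi-likelihood fit, 3 of the 43 were lower in LLRCs (Tgfb2, Tgfbr2 and Ppm1a) and 0 higher, where 3.56% and 1.6% of all genes tested were. Without the non-LRC library of JV621 the log2 fold changes of these 3 were -0.64, -0.91 and -0.79, against -1.14, -1.60 and -1.58 with it. Values of these pathway genes without 1 library were added after the data were seen. Their median log2 fold change was -0.18, beside -0.015 over all genes tested.

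Among the ligands, Gdf2, which encodes BMP9, the ligand of endoglin and ALK1, had 0, 31, 10 and 8 counts in LLRCs, against 0, 0, 203 and 129 counts in non-LRC cells. Its reads were thus spread over both sorts, with most in the non-LRC libraries of 2 mice (log2 fold change -3.25, standard error 1.86). The log2 fold change was -2.49 without the non-LRC library of JV624 and -4.18 without the LLRC library of JV621. Bmp7, an epithelial BMP, went the other way in all 4 mice, as did 7.74% of all genes tested. Its means were 13.3 ± 5.42 CPM (SD, n = 4) in LLRCs and 4.38 ± 3.67 CPM outside them. The latter was 2.84 CPM without JV621 and 5.83 CPM without JV6314, whose non-LRC library had 0 counts. edgeR's quasi-likelihood fit put the log2 fold change at 1.61 ± 0.97 (standard error), with an adjusted p of 1. Without these non-LRC libraries it was 2.215 and 1.20, respectively. Tgfb3 stood at 4.81 ± 2.24 and 10.7 ± 2.83 CPM without overlap and Tgfb2 at 35.4 ± 15.8 and 77.8 ± 46.6 CPM, both lower in LLRCs in all 4 mice, as were 5.53% of all genes tested. Bmp5 rested on 1 library, with 131 counts in the non-LRC library of JV624 and at most 13 in any other. Without it the log2 fold change turned from -2.35 to 1.98.

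Of the receptors, Tgfbr2, the type II receptor of TGF-beta, had 18.6 ± 10.4 CPM in LLRCs but 56.5 ± 44.2 CPM in the EGFP-negative sort, fitted at -1.60 on the log2 scale with 0.60 as its standard error. That mean was 35.2 CPM without JV621, and JV6314 was higher in LLRCs. Tgfbr1, its type I partner, stood at 51.3 ± 29.3 and 25.0 ± 17.7 CPM, fitted at 1.03 on the log2 scale with 0.90 as its standard error. The log2 fold changes of Acvr2a, Rgmb and Tgfbr3 were 0.58, 0.44 and -0.32, each within its standard error. All 3 moved with 1 library: they were 1.33 without the non-LRC library of JV602, 1.21 without that of JV6314 and 0.84 without that of JV6314, respectively, and Tgfbr3 was -2.15 without the LLRC library of JV6314. Smad1 to Smad5, which pass the signal on, were read in all 8 libraries. Smad1 was lower and Smad2 higher in the LLRC library of each mouse, as were 5.53% and 7.74% of all genes tested. For Smad1 the difference in JV624 was only -0.033 on the log2(CPM + 1) scale. The BMP Smads Smad1 and Smad5 had log2 fold changes of -0.77 and -0.63, Smad2 and Smad3 of the TGF-beta branch 0.79 and 0.05, and the shared Smad4 0.57.

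Modulators of the pathway showed no common direction. Bambi, a decoy receptor that BMP signalling induces, was higher in the LLRC library of each mouse (63.5 ± 5.41 and 41.2 ± 20.2 CPM, log2 fold change 0.62, standard error 0.39). This pattern was that of 7.74% of all genes tested, and in JV624 the difference was only 0.065 on the log2(CPM + 1) scale. Ppm1a, a phosphatase of the receptor Smads, and Ski, a repressor, had log2 fold changes of -1.58 and -0.74, Smurf1 and Skil -0.42 and 0.40. Crim1, a membrane protein that binds BMPs, was lower in LLRCs with no overlap (34.0 ± 5.60 and 71.6 ± 57.3 CPM), with the non-LRC library of JV621 at 157.4 CPM and a mean of 43.0 CPM without it. Nbl1, Fstl1, Bmp1 and Chrdl1 had log2 fold changes of -2.64, -0.49, 0.47 and -0.40. Nbl1 rested on 1 library, with 215 of its counts in the non-LRC library of JV624, and its log2 fold change was -0.98 without it. Chrdl1 was 1.60 without the same library and -2.78 without the LLRC library of JV6314. The antagonists Nog, Grem1 and Sostdc1 had 0 counts in all 8 libraries, which is under the floor of 3 counts in each.

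Id2 was the most abundant gene of the Id family, with 3394 ± 750.1 CPM (SD, n = 4) in LLRCs, 2811 ± 1004 CPM in the EGFP-negative sort and 0.27 (standard error 0.32) as the log2 change. Atoh8, a BMP target in liver and endothelium, stood at 19.8 ± 6.51 and 15.2 ± 4.89 CPM, fitted at 0.38 on the log2 scale with 0.40 as its standard error. Hey1, an endothelial target of ALK1 and of Notch, had 12, 16, 2 and 16 counts in LLRCs, against 0, 88, 46 and 0 counts in non-LRC cells, so that its mice went both ways, and leaving out JV621 took the mean of non-LRC cells from 6.41 to 2.42 CPM.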

How the data were processed

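PicoPure RNA from the sorts was made into Illumina libraries. With HTSeq, counting unstranded exon reads by the union rule against GRCm38.p4 (Ensembl), the authors made the raw counts they deposited for 46603 genes. The aligner is not given in the sources used here. A deposited table of the authors' own edgeR 3.2.4 comparison, with fold changes and p-values, was not used. GENCODE M21 gave symbols and exon lengths for 46005 rows (598 had none). Genes passing edgeR's filterByExpr (13605) were scaled by TMM and tested with edgeR 4.0.16's quasi-likelihood test (R 4.3.3) with group as the only term, 4 libraries against 4, Benjamini-Hochberg adjustment and a threshold of 0.05. Standard errors given with edgeR fits were derived from the test, as the absolute log2 fold change over the square root of its F statistic. Exact permutation tests were two-sided, unpaired and on log2(CPM + 1). Alternatives used DESeq2 1.42.0, limma 3.58.1 (voom with sample weights), other filters and scalings, mouse as a block, and single libraries removed. The fits were tested on simulated data. Members and lists were chosen with earlier results of these data known. Named were all members and, of each role of the pathway list, up to 5 tested genes with at least 5 CPM in a group and the largest absolute log2 fold change. Floors cover counting error only. The libraries of a mouse come from 1 animal, which pairs them. Their deviations from the group means correlated across genes at 0.090, 0.098, 0.004 and 0.188 in JV602, JV621, JV624 and JV6314. A sign-flip test over 4 mice cannot give a two-sided p below 0.125, so none was run.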

Additional observations from a re-analysis of the deposited data

Results flagged for a closer look

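Of 100 groups of 4 values examined, 8 held a library standing well away from the rest. By the setting of the rule, about 1 in 20 would do so by chance if the values were normally distributed, which was not tested. Of the 10 members' own levels, none was among them. The ratio of Id1 to the 18 endothelial markers was 50.9% in the non-LRC library of JV602 and between 12.5 and 17.4% in the other non-LRC libraries. Among other pathway genes, Bmp5 was at 0 CPM in the LLRC library of JV624 (1.26 to 1.44 CPM in the others) and at 20.7 CPM in the non-LRC library of the same mouse (0 to 0.789 CPM). The LLRC library of JV6314 stood apart with 53.7 CPM of Tgfbr3 (1.03 to 7.56 CPM in the others), 22.0 CPM of Chrdl1 (0 to 3.19 CPM) and 55.5 CPM of Bambi (65.1 to 66.9 CPM). The non-LRC library of JV621 stood apart with 730.2 CPM of Skil (310.4 to 363.3 CPM) and 157.4 CPM of Crim1 (41.7 to 44.8 CPM).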

How the results depend on the processing

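Genes called numbered 0 under edgeR's quasi-likelihood test (702 at an unadjusted p below 0.05), 11 without a filter on low counts, 221 in DESeq2's Wald test, 115 in edgeR's exact test and 0 to 6 with 1 library left out, the 6 when that of JV602 non-LRC cells was omitted. Of the 10 members 0 were called, 3 in DESeq2 and 2 in the exact test, and 0 in every fit with 1 library left out. With the mouse as a replicate block, a paired fit, 0 members and 0 genes were called (569 at an unadjusted p below 0.05), and it changed no call.

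Over 17 alternatives the log2 fold change of Eng lay between -3.88 and -3.12 (adjusted p between 1.22e-05 and 0.523) and that of Bmp4 between -4.27 and -3.51 (between 1.82e-06 and 0.445). Bmp2, Acvrl1 and Smad6 also kept their sign in all 17, with Bmp2 between -3.49 and -1.80, Acvrl1 between -2.68 and -1.42 and Smad6 between -2.23 and -0.77 (limma). The median of all genes was -0.015, but 0.10 in limma and 0.14 with the block, and -0.052 in DESeq2's Wald test and -0.089 with scaling by library size only. Members near 0 changed sign. Id3 was 0.001 with upper-quartile scaling, and in limma Id3, Bmp6, Bmpr2 and Smad7 were 0.23, 0.33, 0.029 and -0.01. Bmp6 was 0.46 with the block. With 1 library left out Id3 lay between -0.38 and 0.21, Id1 between -0.069 and 0.51, Bmpr2 between -0.54 and 0.17 and Bmp6 between -0.71 and 1.08. The cause was not tested. The mean ratio of 5 members to the endothelial marker sum was higher in LLRCs by 5.27 percentage points, and by 8.99 with 13 markers. With 18 markers the means were 23.1% and 17.8%, and the groups overlapped. The LLRC mean was 21.1% without JV602, and the non-LRC mean 15.05% without JV624. Bmp6 alone stood at 6.19% in LLRCs and 0.887% otherwise. Acvrl1 and Bmp2 also had the higher mean in LLRCs, while Eng and Bmp4 had the lower. Depth limits Bmp4, Acvrl1 and Smad6, with 2 to 31 counts in LLRC libraries, and Bmp6, with 0 counts in the non-LRC library of JV621.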
